A study of Mus musculus with 12 samples.

Results

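The immunity-related GTPases (IRGs) described here are the 8 mouse genes Irgm1, Irgm2, Igtp, Iigp1, Tgtp1, Tgtp2, Ifi47 and Gm4951, chosen by name. They are 8 of the 47937 genes in a table of raw read counts, and 8 of the 11760 genes that had enough reads to be tested. RNA was sequenced from C57BL/6 macrophages that were grown out of bone marrow for 7 days in CSF-1 (20 ng/ml). There were 12 libraries, 3 in each of 4 groups. Resting macrophages (M0) received no stimulus, and the labels give no time for them. IFNγ + LPS macrophages received IFNγ at 50 ng/ml and LPS at 20 ng/ml for 18 h. Both conditions were repeated with DGAT1i, the compound T863 at 50 µM, an inhibitor of the enzyme DGAT1 that makes triglycerides. The source label gives T863 for the 3 M0 libraries with DGAT1i, whereas the descriptions of 2 of them carry another compound number. The DGAT1i comparisons ask how blocking triglyceride synthesis alters resting and inflammatory macrophages.

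IRGs are large GTPases whose mRNAs are made when interferon reaches a cell. Effector members (Iigp1, Tgtp1, Tgtp2 and Ifi47) load onto the membrane of vacuoles that hold intracellular parasites or bacteria, and they take part in breaking that membrane down. Regulatory members (Irgm1, Irgm2 and Igtp) sit on the cell's own membranes, where they keep the effectors in their inactive form. Promoters of interferon target genes often hold GAS elements and ISRE elements, and the factor IRF1 binds the latter. Gm4951 is a gene model of the same family, and its role is less well described.

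The libraries held between 4996014 and 6621671 reads on genes, with a median of 6099313.5. Levels are given in CPM, read counts scaled to library size with TMM normalization, and 1 CPM was worth 4.28 to 7.58 reads. Within a group the libraries correlated at r of 0.988 to 0.992 on log2 CPM. The label of macrophage was checked on 7 markers, among them Adgre1, Csf1r, Cd68 and Lyz2, and all 7 had reads in every group, with a summed level of 7818 to 17985 CPM per library. The T cell, B cell, NK cell, stromal, mast cell and erythroid lists summed to at most 4.83 CPM in any library. Cd3e, Cd3g, Ncr1, Cpa3 and Mcpt8 had 0 reads throughout.

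With their identifiers, 6 of the 8 members lie on chromosome 11 of GRCm38 (GENCODE release M21). Irgm1 (ENSMUSG00000046879.6, 48861968 to 48871683, minus strand), Tgtp1 (ENSMUSG00000078922.9, 48985327 to 48994172, minus), Tgtp2 (ENSMUSG00000078921.3, 49057194 to 49064206, minus) and Ifi47 (ENSMUSG00000078920.2, 49076587 to 49096974, plus) form a first cluster. Igtp (ENSMUSG00000078853.8, 58199556 to 58207591, plus) and Irgm2 (ENSMUSG00000069874.7, 58199618 to 58222782, plus) overlap in a second cluster. Gm4951 (ENSMUSG00000073555.1, 60212080 to 60247820, plus) and Iigp1 (ENSMUSG00000054072.11, 60376027 to 60392634, plus) lie on chromosome 18. All 8 are annotated as protein coding, and reads were counted per gene.

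Some members share sequence, which limits how far a read can be assigned. Of all 50-base windows in the transcripts of Tgtp1, 81.2% occur in another gene and 79.4% occur in Tgtp2. For Tgtp2 the share is 86.6%. At windows of 100 bases the shares are still 73.1% for Tgtp1 and 76.8% for Tgtp2, so the split of reads between these near-identical copies is uncertain. The share is 11.8% for Igtp and 7.83% for Irgm2, which have 162 exon bases in common, and at most 4.81% for the other 4 members. Tgtp1 also has 223 exon bases in common with Gm12185 on the same strand. Ifi47 overlaps Olfr56 by 111 bases on its own strand and Gm12188 by 106 bases on the opposite strand, and whether strand was used in counting is not stated.

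The promoters of the members that rise together were searched for 2 motifs of interferon response. RefSeq promoter windows (GRCm38.p6, 250 bases before to 50 bases after the start) were at hand for 6 of the 8 members. The ISRE core was searched as GAAA, any 2 bases, then GAAA, and GAS as TTC, any 3 bases, then GAA, on both strands and with overlapping matches counted. The ISRE core was in 5 of the 6 windows, against 3.44% of all 32851 windows in the table. GAS was in 4 of the 6, against 8.30% of all windows. Both motifs were in the same 4 windows (Irgm2, Igtp, Tgtp1 and Tgtp2), against 0.454% of all windows. A match describes letters and is neither a bound site nor a cause, and related genes share ancestry, so their windows are not independent.

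The 60 bases around the motifs are printed for these 5 members and for the neighbouring family member Gm12185, because the members among them carry the motif matches. Gm12185 was chosen after its matches were seen: of 5 other IRG-like genes with a window it alone held both motifs, 9930111J21Rik1 held an ISRE core alone, 26 bases after its start, and 9930111J21Rik2, Gm5431 and Irgq held neither. Each stretch runs 5′ to 3′ on the gene's own strand, with GAS and the ISRE core in capitals. The positions are chr11:48871425-48871484 for Irgm1, chr11:58214873-58214932 for Irgm2, chr11:58199482-58199541 for Igtp, chr11:48992304-48992363 for Tgtp1, chr11:49064263-49064322 for Tgtp2 and chr11:48927238-48927297 for Gm12185.
Irgm1: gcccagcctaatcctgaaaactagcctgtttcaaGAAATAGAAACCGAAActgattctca
Irgm2: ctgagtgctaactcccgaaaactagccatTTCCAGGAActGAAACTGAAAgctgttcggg
Igtp: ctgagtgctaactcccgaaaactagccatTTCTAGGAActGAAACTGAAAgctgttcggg
Tgtp1: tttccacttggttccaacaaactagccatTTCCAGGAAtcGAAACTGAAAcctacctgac
Tgtp2: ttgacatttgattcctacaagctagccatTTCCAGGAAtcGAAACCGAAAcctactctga
Gm12185: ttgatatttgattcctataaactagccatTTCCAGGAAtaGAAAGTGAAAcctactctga

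In Irgm2, Igtp, Tgtp1, Tgtp2 and Gm12185, GAS was followed by the ISRE core after 2 bases. Irgm1 had no GAS match but 2 overlapping ISRE cores, the nearest to the start beginning 24 bases before it. The windows of Irgm2 and Igtp were 93.6% identical where aligned, those of Tgtp1 and Tgtp2 83.3%, and those of Tgtp2 and Gm12185 96.6%. The Ifi47 window, which belongs to its upstream start at 49076587, held neither string of letters. The windows of Irgm1, Irgm2, Tgtp1 and Gm12185 belong to starts inside the annotated gene, not at its outer end. Gm12185 is annotated from 48904656 to 48992226 on the minus strand.

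**Figure D1:**
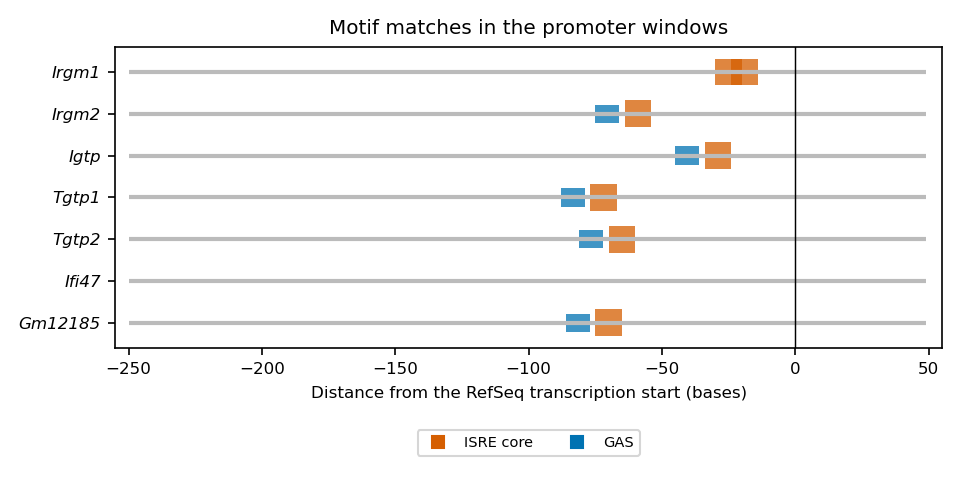
Matches to the ISRE core (orange) and to GAS (blue) in the RefSeq promoter windows of 6 members and Gm12185, against distance from the transcription start in bases. In 4 members and Gm12185 the pair lies side by side, Irgm1 has 2 overlapping ISRE cores and Ifi47 has no match.

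The question of the comparison without inhibitor is which members IFNγ + LPS induced. All 8 were higher after IFNγ + LPS than in M0, in a fit where 73.3% of all genes tested were called, 37.1% higher and 36.2% lower (adjusted p under 0.05 in edgeR's quasi-likelihood test, adjusted by Benjamini-Hochberg). Iigp1, Tgtp1 and Tgtp2 had at most 12 reads in any M0 library and passed the filter on low counts through the stimulated libraries alone. That they were called higher, without overlap, was therefore largely set by the filter. Of the genes called, 50.6% were higher with TMM scaling and 25.05% with scaling by library size alone, under which all 8 members were still called higher. Every stimulated library was above every M0 library for each of the 8, which held for 38.2% of the genes tested, among 75.4% whose groups did not overlap in either direction. The median log2 fold change of the members was 7.06, and it was the same with Tgtp1 at its lower bound, while the median over all genes tested was 0.01. Together the members took 0.0110% ± 0.000419 of all reads in M0 and 0.805% ± 0.0149 after IFNγ + LPS (SD, n = 3 each). In bulk RNA, fewer cells that express a gene and less RNA per cell cannot be told apart.

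**Figure D2:**
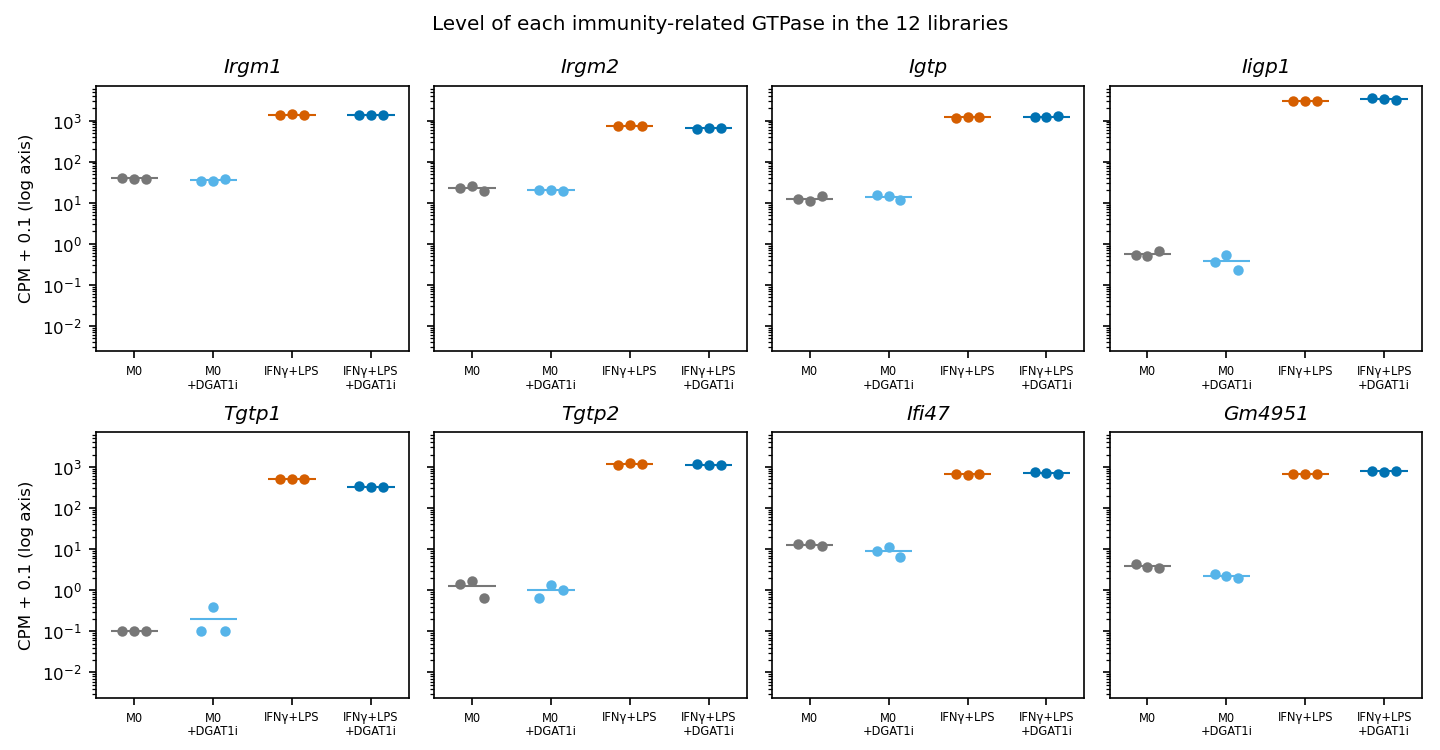
CPM plus 0.1 on a log axis for the 8 members, with 1 point per library and a line at the group mean (n = 3). All stimulated libraries lie far above all M0 libraries, and Tgtp1 has 0 reads in the 3 M0 libraries.

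Among the regulatory members, Irgm1, which is also needed for mitochondrial and autophagic homeostasis, had the highest resting level in CPM. It stood at 39.8, 38.5 and 38.3 CPM in M0 and at 1350.1, 1424 and 1368 CPM after IFNγ + LPS. The groups lay far apart, and Irgm1 rose by 5.15 on the log2 scale (adjusted p = 1.93e-55, edgeR). With DGAT1i the stimulated libraries held 1329, 1362 and 1346 CPM, inside or just below the range without it. The log2 fold change for DGAT1i was -0.04 (95% interval -0.13 to 0.06, adjusted p = 0.614, edgeR), so a shift within this interval could not be told from none.

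Irgm2, a regulator found at the Golgi, was at 23.1, 26.0 and 19.6 CPM in M0. After IFNγ + LPS it was at 732, 795 and 737 CPM, higher by 5.04 on the log2 scale (adjusted p = 5.21e-52, edgeR). With IFNγ + LPS and DGAT1i it was at 618, 665 and 671 CPM, so that every library with the inhibitor lay below every library without it. Irgm2 fell by 0.21 on the log2 scale with DGAT1i (standard error 0.05, adjusted p = 0.00146, edgeR).

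Igtp, also called Irgm3 and found at the endoplasmic reticulum and at lipid droplets, was at 12.1, 11.1 and 14.2 CPM in M0. It was at 1159, 1248 and 1213 CPM after IFNγ + LPS, higher by 6.60 on the log2 scale (adjusted p = 5.83e-56, edgeR). With DGAT1i the stimulated libraries stood at 1209, 1248 and 1271 CPM, and the groups overlapped. The log2 fold change for DGAT1i was 0.04 (95% interval -0.06 to 0.15, adjusted p = 0.596, edgeR). Of the 3 regulatory members, 1 was called lower with DGAT1i in IFNγ + LPS and 2 were not called, where 29.8% of all genes tested were called and 16.3% were called lower.

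The effector Iigp1, also called Irga6, was nearly silent at rest, with 10 reads over the 3 M0 libraries (0.436, 0.400 and 0.557 CPM). After IFNγ + LPS it stood at 2932, 3040.2 and 3064 CPM, the highest CPM of the 8 members, and rose by 12.60 on the log2 scale (adjusted p = 2.10e-61, edgeR, 12.51 to 12.75 with a library left out). With DGAT1i the stimulated libraries were at 3517, 3289 and 3208 CPM, all above those without it. Iigp1 rose by 0.15 on the log2 scale with DGAT1i (standard error 0.05, adjusted p = 0.0212, edgeR). This call was lost without replicate 1 of IFNγ + LPS (0.12, adjusted p = 0.107), without replicate 1 of IFNγ + LPS with DGAT1i (0.11, adjusted p = 0.135), and with no filter on low counts (0.11, adjusted p = 0.190), all by edgeR.

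Tgtp1, a copy of the effector Irgb6, had 0 reads in each of the 3 M0 libraries. It stood at 502, 512 and 508 CPM after IFNγ + LPS, at least 3649-fold higher against a floor of 3 reads over the M0 group (0.139 CPM). With DGAT1i the stimulated libraries held 344, 317 and 332 CPM. The groups did not come near each other, and Tgtp1 had the largest log2 change of the 8 members with DGAT1i in IFNγ + LPS: it fell by 0.61 (standard error 0.05, adjusted p = 1.19e-13, edgeR). Leaving out any single library gave values from -0.65 to -0.59.

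Tgtp2, the other copy, had 25 reads over the M0 libraries (1.31, 1.60 and 0.557 CPM) and reached 1123, 1221 and 1169 CPM after IFNγ + LPS, higher by 9.96 on the log2 scale (adjusted p = 8.50e-58, edgeR, 9.63 to 10.28 with a library left out). With DGAT1i the stimulated libraries were at 1153, 1136 and 1142 CPM, within the range without it. The log2 fold change for DGAT1i was -0.03 (95% interval -0.14 to 0.07, adjusted p = 0.673, edgeR).

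Because most of their sequence is shared, the reads of both copies were also considered together. Tgtp1 took 30.9%, 29.5% and 30.3% of the reads of Tgtp1 and Tgtp2 in the IFNγ + LPS libraries, and 23.0%, 21.8% and 22.5% in those with DGAT1i. The mean share was 30.2% ± 0.677 without and 22.5% ± 0.589 with DGAT1i (SD, n = 3 each), a difference of -7.78 percentage points. The exact two-sided permutation test gave p = 0.1, the smallest value that 3 libraries against 3 allow. With the reads of both copies summed, the log2 fold change for DGAT1i was -0.19 (adjusted p = 0.00558, edgeR), so the sum was called lower as well. How the deposited counts treated reads that match both copies is not stated, and its part in the split was not tested.

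**Figure D3:**
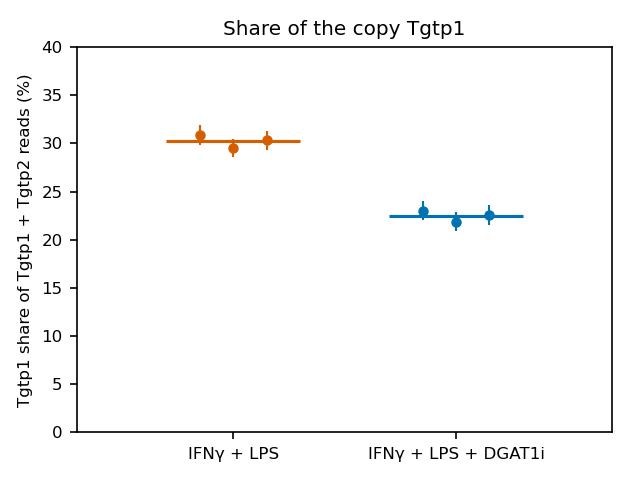
Share of Tgtp1 in the reads of Tgtp1 and Tgtp2, in percent, for the 3 libraries of each stimulated group. Bars are exact 95% binomial intervals, which cover counting error only, and lines are group means. The libraries without DGAT1i lie at 29.5% to 30.9% and those with it at 21.8% to 23.0%.

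Ifi47, the effector Irgd, was at 13.4, 13.3 and 11.7 CPM in M0 and at 679, 650.0 and 662 CPM after IFNγ + LPS, higher by 5.69 on the log2 scale (adjusted p = 7.51e-50, edgeR). With IFNγ + LPS and DGAT1i it stood at 754, 726 and 687 CPM. All 3 were above the libraries without DGAT1i, yet the log2 fold change of 0.12 (95% interval 0.01 to 0.23) missed the threshold (adjusted p = 0.0859, edgeR). It passed when only the libraries compared were fitted (0.14, adjusted p = 0.0297, edgeR).

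Gm4951 was at 4.21, 3.60 and 3.34 CPM in M0 and at 671, 684 and 690.1 CPM after IFNγ + LPS, higher by 7.51 on the log2 scale (adjusted p = 2.27e-56, edgeR, 7.45 to 7.61 with a library left out). With IFNγ + LPS and DGAT1i it stood at 819, 756 and 801 CPM, above every library without the inhibitor. Gm4951 rose by 0.22 on the log2 scale (standard error 0.05, adjusted p = 5.09e-04, edgeR).

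In IFNγ + LPS, DGAT1i thus called 4 of the 8 members, 2 higher (Iigp1 and Gm4951) and 2 lower (Tgtp1 and Irgm2), in a fit where 29.8% of all genes tested were called, 13.5% higher and 16.3% lower. The median log2 fold change of the members was 0.00, against -0.01 over all genes tested. The members' groups did not overlap for Irgm2, Iigp1, Tgtp1, Ifi47 and Gm4951, and 39.7% of all genes tested had groups that did not overlap, 18.1% higher and 21.6% lower. The summed share of reads hardly moved, at 0.816% ± 0.0132 with DGAT1i (SD, n = 3) beside 0.805% without. No member moved by more than 0.61 on the log2 scale with DGAT1i, beside at least 5.04 for IFNγ + LPS.

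Markers of other cell types moved with the same groups. Of 8 markers of neutrophils and their precursors, 4 had enough reads to be tested and all 4 were called higher with DGAT1i in IFNγ + LPS. Their summed level was 15.2 to 25.5 CPM without and 63.0 to 81.0 CPM with DGAT1i, mostly S100a8 (9.13 and 34.5 CPM on average) and S100a9 (7.78 and 25.8 CPM). The granule genes Ngp (1.35 and 9.18 CPM on average) and Ltf (0.932 and 4.33 CPM) had the largest log2 changes of the 4, at 2.68 and 2.12 (adjusted p = 1.45e-08 and 1.06e-04, edgeR). In M0 the sum was 31.6 to 38.7 CPM, and 22.9 to 29.0 CPM with DGAT1i. Of the remaining markers on the list, Ly6g had 0 reads in all 12 libraries and Elane had 0 reads in both stimulated groups. Camp (0.586 and 0.718 CPM on average) and Mpo (0 and 0.0695 CPM) had too few reads for a test, and their groups overlapped. Of 4 dendritic cell markers, 1 was tested and was lower, and the list summed to 5.62 to 7.16 CPM without and 1.04 to 1.40 CPM with DGAT1i. The 7 macrophage markers summed to 8225 to 8876 CPM without and 7818 to 8775 CPM with DGAT1i, ranges that overlap, and 1 of them was called higher and 3 lower. The part of these shifts in the members' values was not tested.

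In M0, the same comparison rested on fewer reads. DGAT1i called 2 of the 8 members, both lower (Ifi47 and Gm4951), where 24.4% of all genes tested were called and 13.4% were called lower. With scaling by library size alone, 29.7% of the genes called were higher, beside 45.2% with TMM. The median log2 fold change of the 7 members other than Tgtp1 was -0.35, against 0.00 over all genes tested. That median is the value of Tgtp2, which was not called and rests on 25 reads without and 20 reads with DGAT1i. It therefore does not show a fall of the family. The 7 macrophage markers summed to 12944 to 14197 CPM in M0 and 15951 to 17985 CPM with DGAT1i, and their part in the result was not tested. Ifi47 stood at 9.17, 10.9 and 6.33 CPM with DGAT1i, below its 3 M0 libraries. It fell by 0.54 on the log2 scale (standard error 0.13, adjusted p = 0.00118, edgeR), and by 0.35 without replicate 3 of M0 with DGAT1i (adjusted p = 0.0669, edgeR).

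Gm4951 stood at 2.39, 2.13 and 1.85 CPM with DGAT1i, also below all M0 libraries, and it rested on 80 reads without and 47 reads with the inhibitor. Its log2 level fell by 0.80 (standard error 0.21, adjusted p = 0.0116, edgeR). The call was lost without replicate 1 of M0 (-0.71, adjusted p = 0.0681) and without replicate 3 of M0 with DGAT1i (-0.71, adjusted p = 0.0616), by edgeR. Without that last library, 0 members were called in M0 by edgeR at the adjusted threshold.

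The other 6 members were not called in M0. Irgm1 stood at 33.6, 34.4 and 37.1 CPM with DGAT1i, below its M0 libraries without overlap (log2 fold change -0.15, adjusted p = 0.136, edgeR), and 37.8% of all genes tested did not overlap in this comparison, 17.9% higher and 19.9% lower. Scaling by library size alone took it past the threshold (-0.21, adjusted p = 0.0281, edgeR). Irgm2 was at 20.7, 20.3 and 19.5 CPM and Igtp at 15.4, 14.2 and 11.5 CPM, and both overlapped with M0. Irgm2 passed the threshold as lower without replicate 3 of M0 (-0.29, adjusted p = 0.0351, edgeR). Iigp1, Tgtp1 and Tgtp2 had 6, 2 and 20 reads over the 3 M0 libraries with DGAT1i. Log2 fold changes by edgeR were -0.73 for Iigp1 (95% interval -1.81 to 0.35) and -0.35 for Tgtp2 (95% interval -1.08 to 0.37). Changes within these intervals could not be told from none. The reads of Tgtp1 were too few to give the size of a change.

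**Figure D4:**
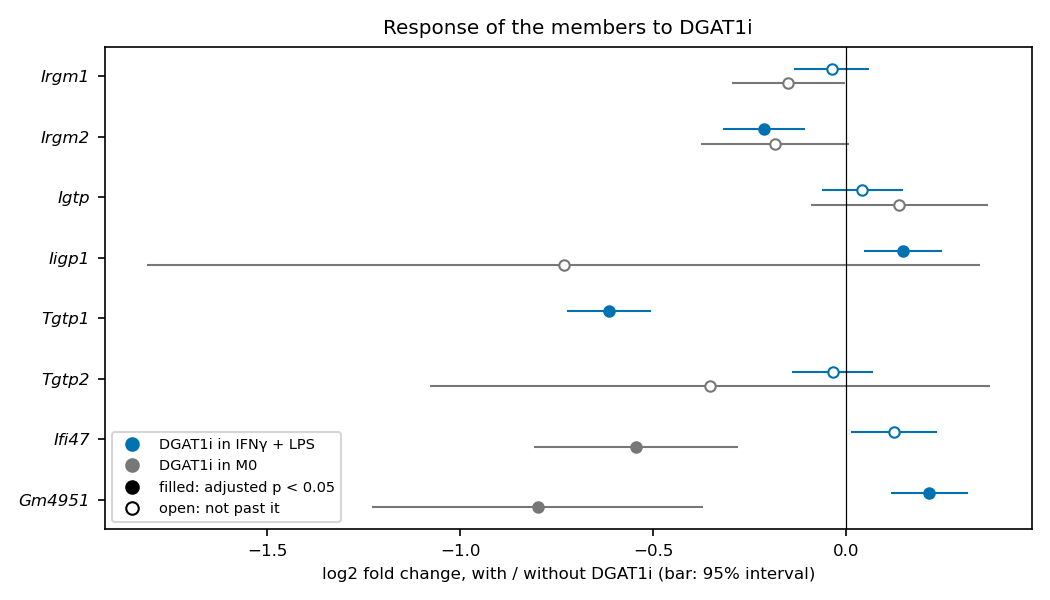
Log2 fold change of each member for DGAT1i in IFNγ + LPS (blue) and in M0 (grey), with 95% intervals from the edgeR fit and filled points for an adjusted p under 0.05. In IFNγ + LPS the values run from -0.61 for Tgtp1 to 0.22 for Gm4951, while in M0 Ifi47 and Gm4951 lie at -0.54 and -0.80. Tgtp1 in M0 is left out because it has 0 reads there without DGAT1i.

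Whether the DGAT1i response differed between stimulated and resting macrophages was tested as an interaction. It was called for 2 of the 8 members, Ifi47 and Gm4951, both with the higher response in IFNγ + LPS, where 18.5% of all genes tested were called, 8.66% higher and 9.80% lower. Of these calls, 46.9% were higher with TMM and 58.2% with scaling by library size alone. The response of Ifi47 was 0.67 higher in IFNγ + LPS than in M0 on the log2 scale (standard error 0.14, adjusted p = 4.19e-04, edgeR), and that of Gm4951 was 1.02 higher (standard error 0.22, adjusted p = 0.00126, edgeR). Both calls held with each library left out in turn, with ranges of 0.47 to 0.84 and 0.92 to 1.11. For Irgm1, Irgm2 and Igtp the intervals of the difference were -0.06 to 0.29, -0.25 to 0.19 and -0.35 to 0.15.

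With DGAT1i present in both groups, all 8 members were again higher after IFNγ + LPS than in M0, where 70.6% of all genes tested were called and 35.3% were called higher (25.5% of those called with scaling by library size alone, beside 50.0% with TMM). The groups of the 8 did not overlap, as for 72.5% of all genes tested, 36.1% higher and 36.5% lower. Log2 fold changes were 5.26 for Irgm1, 5.01 for Irgm2, 6.50 for Igtp, 13.48 for Iigp1, 10.27 for Tgtp2, 6.36 for Ifi47 and 8.53 for Gm4951. Iigp1 rests on 6 reads in M0 with DGAT1i (13.16 to 13.89 with a library left out) and Tgtp2 on 20 reads (10.00 to 10.58). For neither was the interaction called (adjusted p = 0.414 and 0.661, edgeR). The limit set by the filter for Iigp1, Tgtp1 and Tgtp2 holds here too. Tgtp1 had 2 reads in M0 with DGAT1i and 4618 after IFNγ + LPS with it, a ratio of 3670.4 with an exact 95% counting interval of 1015 to 30316. Both of the 2 reads came from replicate 2 of M0 with DGAT1i, and the other 2 libraries of that group had 0 reads. The fitted log2 value moved between 11.03 and 13.96 with a library left out, the highest without that replicate.

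Levels of different members were compared per kilobase of exon (CPM per kb). After IFNγ + LPS the order was Igtp (597 ± 22.2), Iigp1 (517 ± 12.1), Tgtp2 (399 ± 16.7), Ifi47 (268 ± 5.80), Gm4951 (258 ± 3.68), Irgm1 (238 ± 6.68), Irgm2 (204 ± 9.57) and Tgtp1 (158 ± 1.58 CPM per kb, SD, n = 3 each). No neighbours in this order overlapped in their libraries, although Ifi47 (lowest 263) and Gm4951 (highest 261) came close. In this order and those below, the places of Tgtp1 and Tgtp2 are uncertain, because most of their sequence is shared. How shared reads were counted is not stated, and a gap between libraries does not cover that error. In M0 the order was different: Irgm1, Irgm2 and Igtp led at 6.69, 6.21 and 6.15 CPM per kb with overlapping libraries, followed by Ifi47 at 5.17 and Gm4951 at 1.41. Tgtp2 was at 0.393 and Iigp1 at 0.0797 CPM per kb in M0. By their means the regulatory members held the first 3 places at rest, although the lowest Irgm2 library (5.32) lay below the highest Ifi47 library (5.40 CPM per kb). With DGAT1i in IFNγ + LPS, Igtp (615) and Iigp1 (573) overlapped, as did Gm4951 (299) and Ifi47 (292 CPM per kb), and the other neighbours did not.

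Other IRG-like genes gave a wider spread under DGAT1i. Of 9 names in the list, 8 matched a gene in the count table and 6 were tested, and 5 were higher after IFNγ + LPS, beside 37.1% of all genes tested. The other, Irgq, was at 0.01 (adjusted p = 0.911, edgeR), and it was called lower with scaling by library size alone (-0.45). With DGAT1i in IFNγ + LPS, 1 was higher and 4 were lower, beside 13.5% and 16.3% of all genes tested. Genes of this list share sequence, so their counts may not be separate. Of the 50-base windows, 83.2% for 9930111J21Rik1, 59.8% for 9930111J21Rik2, 37.3% for Gm5431 and 19.5% for Gm12185 occur in another gene. Gm12185, whose exons overlap those of Tgtp1 and whose promoter is printed above, was at 227, 244 and 235 CPM without and 117, 118 and 121 CPM with DGAT1i. It fell by 0.99 on the log2 scale (standard error 0.06, adjusted p = 1.61e-19, edgeR), below every library without the inhibitor. Irgq, a distant relative linked to autophagy, was at 28.6, 24.5 and 25.1 CPM without and 41.6, 40.7 and 50.7 CPM with DGAT1i, and it rose by 0.76 (standard error 0.11, adjusted p = 1.07e-07, edgeR). 

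The genes that carry the interferon signal were read from lists chosen with the members. Of 9 receptors, kinases and STATs, 8 were higher and 1 was lower after IFNγ + LPS (6 and 2 with scaling by library size alone), where 37.1% and 36.2% of all genes tested were. With DGAT1i in IFNγ + LPS, 1 was higher and 4 were lower, where 13.5% and 16.3% of all genes tested were. Tyk2, a kinase of the type I interferon receptor, fell by 0.42 (adjusted p = 1.89e-08, edgeR). Ifnar2, a chain of that receptor, rose by 0.28 (adjusted p = 3.62e-04, edgeR).

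Of 4 interferon regulatory factors, all were higher after IFNγ + LPS (37.1% of all genes tested). With DGAT1i in IFNγ + LPS 1 of the 4 was lower, close to the 16.3% of all genes tested. Irf1, which binds the ISRE, stood at 1981, 1983 and 1995 CPM without and 1869, 1932 and 1973 CPM with DGAT1i. Its log2 fold change of -0.05 was not past the threshold (standard error 0.05, adjusted p = 0.542, edgeR). In M0 Irf1 was at 43.4, 44.3 and 38.7 CPM without and 28.7, 32.4 and 30.2 CPM with DGAT1i, and fell by 0.47 (standard error 0.08, adjusted p = 1.40e-06, edgeR). Irf9, a subunit of the factor that type I interferon activates, fell by 0.53 in IFNγ + LPS (adjusted p = 2.80e-08, edgeR), and Irf2 was at 0.13 (adjusted p = 0.326, edgeR).

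Of 6 inhibitors of interferon signalling, 3 were lower with DGAT1i in IFNγ + LPS, against 16.3% of all genes tested. Usp18, which blocks the type I receptor, stood at 726, 712 and 656 CPM without and 418, 445 and 429 CPM with DGAT1i, and fell by 0.70 (standard error 0.05, adjusted p = 1.42e-16, edgeR). In M0 Usp18 was at 6.83, 5.99 and 6.68 CPM without and 4.12, 3.97 and 3.43 CPM with DGAT1i, and it fell by 0.75 there (adjusted p = 9.27e-04, edgeR), with a difference between the responses of 0.06 (adjusted p = 0.868, edgeR). Socs1, an inhibitor of JAK kinases, had a log2 fold change of -0.03 (adjusted p = 0.743, edgeR) and Socs3 one of 0.11 (adjusted p = 0.154, edgeR). Of 6 genes of the LPS receptor and its adaptors, 1 was lower, a share near that 16.3%: Tlr4 fell by 0.36 (adjusted p = 1.13e-05, edgeR), and Cd14 was at 0.12 (adjusted p = 0.226, edgeR). No read of Ifng was counted in any library. Ifnb1 had 7, 9 and 3 reads after IFNγ + LPS and 0, 2 and 2 reads with DGAT1i, too few for a test.

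Further lists hold machinery that acts with the IRGs at vacuoles, read against the 13.5% of all genes tested that were called higher and the 16.3% called lower. Of 10 genes of ATG8 conjugation, which the effectors need in order to reach the vacuole, 5 were higher with DGAT1i in IFNγ + LPS. Gabarapl1 rose by 0.61 (standard error 0.08, adjusted p = 9.04e-09, edgeR), while Atg16l1 was at -0.18 (adjusted p = 0.0523, edgeR) and was called lower under 5 of 7 other settings and in 4 of 12 refits with a library left out. Of 3 ubiquitin ligases and adaptors found at coated vacuoles, Traf6 rose by 0.41 (adjusted p = 1.62e-04, edgeR) and Trim21 fell by 0.57 (adjusted p = 1.98e-10, edgeR). The median log2 fold change was 0.23 for the ATG8 list.

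Guanylate-binding proteins, the other large family of interferon-induced GTPases, are the closest comparison to the IRGs. All 11 were higher after IFNγ + LPS, and all 11 were lower with DGAT1i in IFNγ + LPS (37.1% and 16.3% of all genes tested), with a median log2 fold change of -0.46 beside 0.00 for the 8 IRGs. At 0 and 0.373 CPM in M0, Gbp2b and Gbp5 passed the filter on low counts through the stimulated libraries alone, which largely set their call as higher. Gbp2b stood at 463, 455 and 449 CPM without and 63.4, 47.4 and 49.7 CPM with DGAT1i, and fell by 3.09 on the log2 scale (standard error 0.07, adjusted p = 4.46e-31, edgeR). At the other end of the family, Gbp5 stood at 2828, 2948 and 2737 CPM without and 2371, 2455 and 2156 CPM with DGAT1i, and fell by 0.29 (standard error 0.05, adjusted p = 2.03e-05, edgeR). The difference between the families was not tested. Of 11 other genes that IFNγ induces, 2 were higher and 8 lower with DGAT1i (13.5% and 16.3% of all genes tested), from Ido1 (it fell by 3.06 on the log2 scale, adjusted p = 7.86e-05, at no more than 4.31 CPM, with values from -4.68 when the stimulated DGAT1i replicate 3 was left out to -2.48 when replicate 2 of that group was left out) to Nos2 (it rose by 0.23, adjusted p = 7.13e-04), by edgeR. These comparisons share the IFNγ + LPS libraries with the induction described above.

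**Figure D5:**
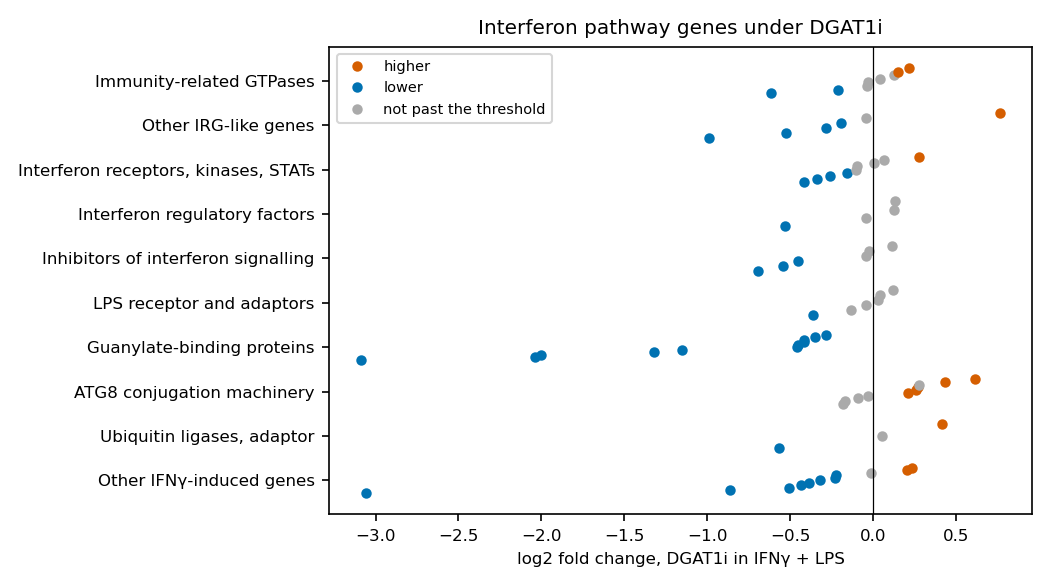
Log2 fold change for DGAT1i in IFNγ + LPS of every tested gene of the lists, by list, coloured by whether it was called higher, lower or neither. The 11 guanylate-binding proteins all lie below 0, from -3.09 to -0.29, and the 8 immunity-related GTPases lie between -0.61 and 0.22.

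Finally, the 3 genes with the pattern most like each member were listed, by the root mean square difference of centred log2 CPM over the 12 libraries. The smallest difference was 0.13, between Igtp and Ifi209 (10.4, 1035, 10.7 and 1041 CPM on average in M0, in IFNγ + LPS, and in the same order with DGAT1i). Irgm1 was nearest to Acsl1 (0.18), Phf11d and Tlr9, and Irgm2 to Phf11d (0.17), Gbp9 and Ifi211. Igtp was further followed by Slc7a2 and Cfb. Iigp1 was nearest to Cxcl9 (0.31), Gbp5 and Gbp4, Tgtp1 to C3 (0.26), AW112010 and Ifi205, and Tgtp2 to C3 (0.26), Ifit2 and Gbp6. Ifi47 was nearest to Irf1 (0.20), Cd40 and Slamf8, and Gm4951 to Il12rb1 (0.23), Ifi213 and Ifi208. These values are dominated by the induction by IFNγ + LPS, which all of these genes have in common with the members.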

How the data were processed

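Gene counts of 12 libraries were analysed, grouped by the deposited labels. The authors deposited raw read counts per gene from an institute pipeline, for which the submitters' processing notes name GRCm38. Which aligner, counting tool and rule for reads shared between copies were used was not given in the sources used here. The study names the TruSeq stranded mRNA kit, whereas the labels name a NEBNext kit. Identifiers were matched to GENCODE release M21 without their version (47224 of 47937 had a symbol), and 25746 genes had 0 reads.

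In R 4.3.3, edgeR 4.0.16 filtered genes with filterByExpr (11760 kept), scaled libraries by TMM and fitted 1 mean per group to all 12 libraries with robust glmQLFit. The biological coefficient of variation over all genes was 0.0507. A gene was called at an adjusted p under 0.05 from the quasi-likelihood test, adjusted over all genes tested. The standard errors given are the absolute log2 fold change divided by the square root of the test's F value. At large fold changes from few reads this ratio can fall below counting error, so none is given for the members' induction. The study names DESeq2, and DESeq2 1.42.0 was an alternative, beside other scalings and filters, a fit of only the libraries compared, a block for the replicate number, Tgtp1 and Tgtp2 summed, and leaving out libraries in turn. Floors are 3 reads over a group, and reads carry no molecular identifiers, so intervals on reads cover counting error only.

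Members, lists and tests were chosen with earlier results of these data known. The text names all 8 members, in each list the genes with the smallest and the largest log2 fold change for DGAT1i in IFNγ + LPS together with Irf1 and Socs1, and per member the 3 most alike genes that are no IRG and average at least 2 on log2 CPM (pseudocount 0.5 CPM). Some genes that the rule names are not reported here. The marker genes and Ifng and Ifnb1 are named beside them. The labels name no separate mice or cultures, so p-values measure only the spread between these samples, which may be technical. Replicates differed by 1.90 to 3.96 times what counting noise gives (chi-square per gene), and no pair was counted as 1 sample. Scripts were tested on simulated data. Figures were drawn with matplotlib 3.10.9, and promoters were aligned with Biopython 1.88.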

Additional observations from a re-analysis of the deposited data

Results flagged for a closer look

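The response to DGAT1i differed between IFNγ + LPS and M0 by the interaction test of edgeR (adjusted p under 0.05) for 2 members and for 10 of the 21 list genes that the naming rule picks, where 18.5% of all genes tested were called. The rule picks genes at the ends of their list by the DGAT1i response in IFNγ + LPS, which is part of this difference, so the count over them is no evidence of its own. A positive value means a higher log2 fold change in IFNγ + LPS than in M0. For the members it was 0.67 for Ifi47 and 1.02 for Gm4951, as given above. For relatives of the family it was -1.34 for Gm12185 (adjusted p = 3.90e-04, edgeR) and 0.64 for Irgq (adjusted p = 0.00114, edgeR). For genes of the interferon signal it was 0.40 for Ifnar2, -0.47 for Tyk2, 0.43 for Irf1, -0.36 for Irf9 and 1.67 for Socs3. For Socs3 the interaction was lost without replicate 1 or 3 of M0 or replicate 1 of M0 with DGAT1i, where it lay between 1.10 and 1.45, and for Irf9 it was lost with DESeq2 (-0.35, adjusted p = 0.0553, DESeq2). It was 0.89 for Cd14, 0.68 for Gabarapl1 and -0.38 for Trim21.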

How the results depend on the processing

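No member with a call reversed its direction under any alternative run, nor did a named list gene in the DGAT1i comparisons and their difference, the only ones refitted gene by gene for the lists. The count of members called was unchanged for IFNγ + LPS against M0 (8 with and 8 without DGAT1i) with each library left out, and ranged from 3 to 4 for DGAT1i in IFNγ + LPS, from 0 to 3 in M0 and from 2 to 2 for the difference. In M0 it was 1 without replicate 1 of M0 and 0 without replicate 3 of M0 with DGAT1i. Of the refits of a member's log2 fold change, 779 kept the side of the threshold, 4 gained and 6 lost the call, which are all given above with their values. With scaling by library size alone, the median over all genes tested stood at -0.46 (log2) for IFNγ + LPS against M0 and at -0.43 with DGAT1i in both groups, and the members stayed at 4.57 or higher in the former. Replicate numbers are shared between groups, but 0 of 18 pairs of same-numbered libraries deviated together at r over 0.1 (-0.02 to 0.07), although 9 of 12 libraries correlated best with their own number. With the replicate block, the members called were 8 for IFNγ + LPS, 4 and 2 for DGAT1i in stimulated and resting cells, and 2 for the difference, as without it. Depth limits the resting values of Iigp1, Tgtp1 and Tgtp2, which rest on at most 25 reads over 3 libraries.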
